A study of Mus musculus with 24 samples.

Results

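miR-205 and miR-203, listed as mir-205 and mir-203, are 2 of the 510 miRNAs counted in mammary tumors and normal mammary glands of mice. They were taken by name, as miRNAs known for their part in epithelial differentiation, and by no rule on their values. Earlier results of these data were known when they were chosen. Both passed the filter on low counts, as did 237 of the 510. Small RNA was sequenced from 24 libraries in 8 groups of 3: tumors of PyMT mice and normal glands of FVB mice at weeks 6, 8, 10 and 12. The PyMT mice were heterozygous females on the FVB background, in which the MMTV promoter drives the polyoma middle T oncogene in the mammary epithelium. The controls were FVB females of the same ages without the transgene. The 4 ages stand for hyperplasia, adenoma with intraepithelial neoplasia, early carcinoma and late carcinoma, and every tumor group is therefore also a stage of one transgenic model. Each library is bulk tissue and holds stroma, vessels, blood and fat beside the epithelium, in amounts that need not be equal between groups. By the paper's histology the carcinoma samples were mostly tumor cells, with few stromal, muscle or inflammatory cells. Tissue of the hyperplasia and adenoma stages still held normal mammary cells.

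miR-205 and miR-203 are both miRNAs of stratified and glandular epithelia. In the mouse mammary gland miR-205 is known as a miRNA of basal and stem cell enriched fractions, and with the miR-200 family it represses Zeb1 and Zeb2, transcription factors that drive the epithelial-mesenchymal transition. miR-203 is known from the epidermis, where it rises as keratinocytes leave the basal layer and represses p63, the transcription factor of basal cells. The miR-200 family (miR-200a, miR-200b, miR-200c, miR-141 and miR-429) and the miR-183 cluster are the other miRNAs most used to mark epithelial cells.

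The sequences are shown first because miR-205 and miR-203 are compared throughout with the miR-200 family, whose known target genes overlap those of miR-205 although the seeds differ. They are from RefSeq on GRCm38.p6, 5′ to 3′, with the seed (bases 2 to 8) in capitals.
miR-205-5p: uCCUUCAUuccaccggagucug
miR-203-3p: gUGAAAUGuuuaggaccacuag
miR-200a-3p: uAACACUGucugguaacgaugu
miR-200b-3p: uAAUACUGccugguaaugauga
miR-205-5p lies at chr1:193507503-193507524 on the minus strand and miR-203-3p at chr12:112130927-112130948 on the plus strand. Of the 510 listed miRNAs 399 had a mature sequence by name, 693 mature sequences in all, and no other one held the seed of miR-205-5p or of miR-203-3p. The seed of miR-200a-3p was also that of miR-141-3p, and the seed of miR-200b-3p that of miR-200c-3p and miR-429-3p.

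The file names hairpins, so the counts do not separate the 2 arms of each precursor. The hairpins are shown to mark what a count can hold, with both mature arms in capitals.
Mir205: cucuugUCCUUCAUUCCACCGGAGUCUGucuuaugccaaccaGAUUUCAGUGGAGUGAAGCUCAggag
Mir203: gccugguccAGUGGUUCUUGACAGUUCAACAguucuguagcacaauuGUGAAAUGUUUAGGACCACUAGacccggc
In mm9, the build named in the labels, Mir205 lies on chromosome 1 from 195333657 to 195333724 on the minus strand. It falls inside an exon of the long noncoding RNA gene 4631405K08Rik on the same strand, the miR-205 host gene. Mir203 lies on chromosome 12 from 113369091 to 113369166 on the plus strand, outside annotated genes, with Aspg at 3307 bases and Kif26a at 15280 bases as its neighbours. Each was annotated once. miR-203b is transcribed from the opposite strand of the Mir203 locus and has no row of its own among the names used here, and the sources do not say whether counting used strand, so reads of miR-203b and miR-203 cannot be told apart here.

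The total count per library ran from 1626022 to 3931375 in normal glands (median 2964452) and from 1032241 to 2213972 in tumors (median 1690296). miR-205 had between 1770 and 21597 counts in a library and miR-203 between 898 and 20957, so counting error was small beside the spread between mice. Values are given as normalized counts (CPM, counts scaled to a common library size) after TMM normalization, a scaling between libraries. One normal library was the highest for both miRNAs and stood apart for miR-203. Normal week 12 replicate 2 held the highest miR-203 (8474 CPM) and the highest miR-205 (7288 CPM) of all 24 libraries. The highest of the other 11 normal libraries held 2278 CPM of miR-203 and 6298 CPM of miR-205. For miR-205 this library was therefore the top of a wide range rather than far outside it. Among 237 miRNAs it lay above the other 11 normal libraries in 10, and miR-203 had the second largest excess over the mean of the other 11, 2.67 on the log2 scale, against 1.30 for miR-205. The comparisons that rest on this library are given with and without it.

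Among normal glands, miR-205 was abundant and variable at every week. At week 6 its level was 2689, 3117 and 5600 CPM in replicates 1 to 3 (mean 3802 ± 1572, SD, n = 3). At week 8 it was 1477, 3900 and 4841 CPM (3406 ± 1736), and at week 10 it was 3304, 2974 and 6298 CPM (4192 ± 1832). At week 12 the normal glands held 1644, 7288 and 1124 CPM (3352 ± 3419), so that the highest and the lowest of the 24 values both fell in this one group. From lowest to highest the 12 normal glands spanned 6.49-fold, and 5.60-fold without normal week 12 replicate 2.

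Tumors gave miR-205 levels within the same range. The values were 4098, 4028 and 3189 CPM at week 6 (mean 3772 ± 506, SD, n = 3) and 5791, 2081 and 6861 CPM at week 8 (4911 ± 2509). They were 6077, 4845 and 4458 CPM at week 10 (5127 ± 846), and 4100, 6098 and 2803 CPM at week 12 (4334 ± 1660). The median was 4279 CPM over the 12 tumors and 3211 CPM over the 12 normal glands, and the groups overlapped at every week. The 12 tumors spanned 3.30-fold.

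miR-203 was lower in abundance than miR-205 in most libraries. Both mature guide strands are 22 bases long, so the 2 levels can be compared on the CPM scale without a length correction, although capture in library preparation can differ between sequences. Normal glands held 2278, 1206 and 1065 CPM of miR-203 at week 6 (mean 1516 ± 663, SD, n = 3). They held 1539, 1340 and 990 CPM at week 8 (1290 ± 278), and 1403, 1207 and 875 CPM at week 10 (1162 ± 267). At week 12 the normal glands held 1732, 8474 and 1556 CPM (3921 ± 3945), with 1 library far above the other 2. The lower pair of week 12 lay above every normal gland of weeks 8 and 10, but narrowly (1556 against 1539 CPM), and below replicate 1 of week 6. Scaled by library size alone the pair held 1464 and 1251 CPM, against 1512 CPM in normal week 8 replicate 2, so this order depended on the scaling.

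Tumors held a nearly constant level of miR-203. It was 1022, 1349 and 1075 CPM at week 6 (mean 1149 ± 175, SD, n = 3) and 1085, 1056 and 1065 CPM at week 8 (1069 ± 15.1). At week 10 it was 1010.0, 1060 and 879 CPM (983 ± 93.5), and at week 12 it was 800, 1342 and 1006 CPM (1049 ± 274). The 12 tumors spanned 1.69-fold, from 800 to 1349 CPM with a median of 1058, whereas the 12 normal glands spanned 9.68-fold, from 875 to 8474 CPM with a median of 1371. Without normal week 12 replicate 2 the other 11 spanned 2.60-fold, up to 2278 CPM. Tumors and normal glands overlapped at weeks 6, 8 and 10, and at week 12 the 3 tumors lay below the 3 normal glands.

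**Figure D1:**
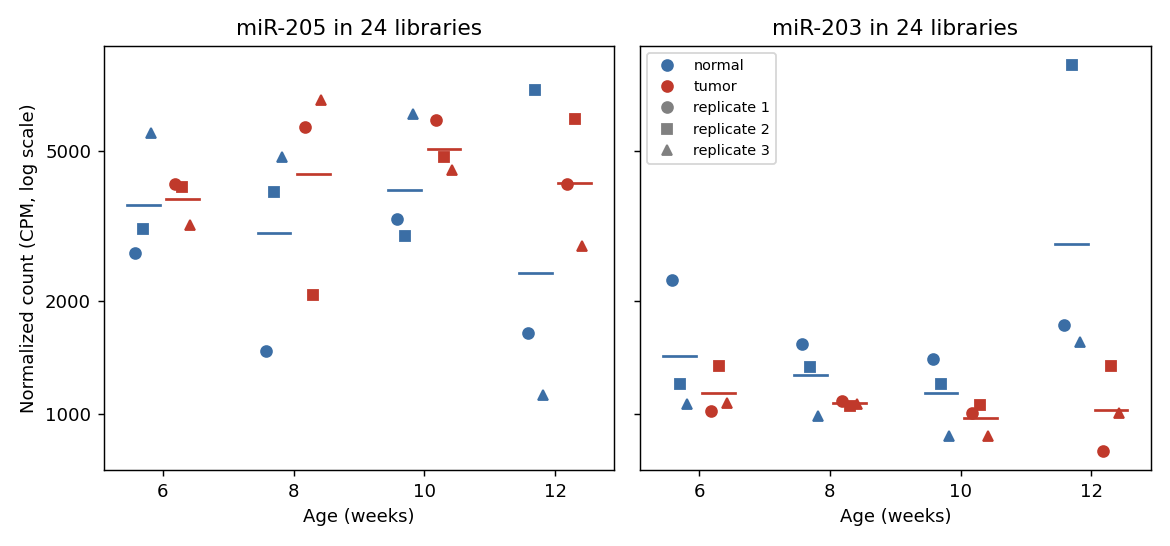
Normalized count of miR-205 (left) and miR-203 (right) in each of the 24 libraries on a log axis against age in weeks, normal glands in blue and tumors in red, with the mark showing the replicate number and the line the mean of the log2 values of the 3 libraries. Tumor values of miR-203 sit between 800 and 1349 CPM, and normal week 12 replicate 2 is the highest library for both miRNAs.

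In order of the group means on the log2 scale, miR-205 ran from tumor week 10, tumor week 8, tumor week 12, normal week 10, tumor week 6, normal week 6 and normal week 8 down to normal week 12, a total of 1.09 log2 units. For miR-203 the order was normal week 12, normal week 6, normal week 8, tumor week 6, normal week 10, tumor week 8, tumor week 12 and tumor week 10, a total of 1.53 log2 units. In both orders the libraries of all 7 pairs of neighbouring groups overlapped, so no step between neighbours exceeded the spread between mice.

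To ask whether tumors differed from normal glands of the same age, each week was tested with edgeR's quasi-likelihood test, with p-values adjusted over 237 miRNAs. miR-205 was not differentially expressed at any week. Its tumor-normal log2 fold change was -0.01 (SE 0.28, adjusted p = 0.971) at week 6, when 58.6% of the tested miRNAs were called in either direction. It was 0.53 (SE 0.52, adjusted p = 0.415) at week 8, with 35.4% called, and 0.29 (SE 0.28, adjusted p = 0.380) at week 10, with 60.3% called. At week 12 it was 0.41 (SE 0.64, adjusted p = 0.616), with 50.6% called. The 95% intervals left room for a difference in either direction. In the order of the weeks they ran from -0.66 to 0.64, from -0.67 to 1.72, from -0.38 to 0.96 and from -1.09 to 1.90.

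The miR-205 comparison depended on single libraries at 2 weeks. Without normal week 12 replicate 2 the week 12 difference was 1.60 (adjusted p = 0.0125), over-expressed in tumor, and without normal week 12 replicate 3 it was -0.04. Without normal week 10 replicate 3 the week 10 difference was 0.61 (adjusted p = 0.0402).

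miR-203 was lower in tumor at week 12 and was not differentially expressed at the earlier weeks. With edgeR, the log2 fold changes of weeks 6, 8 and 10 were -0.40 (SE 0.30, adjusted p = 0.276), -0.31 (SE 0.25, adjusted p = 0.325) and -0.26 (SE 0.21, adjusted p = 0.305). At week 12 it was -1.87 (SE 0.63, 95% interval -3.32 to -0.41, adjusted p = 0.0390), a level in tumor of 0.274 times that in normal glands. Of the 8 comparisons of a member at a week, miR-203 at week 12 was the 1 in which tumor and normal libraries did not overlap. In the order of the weeks, the groups did not overlap for 68.8%, 51.9%, 67.9% and 62.0% of all tested miRNAs, so separation alone was common.

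The size of the week 12 difference rested on normal week 12 replicate 2, without which it was -0.70 (adjusted p = 0.0490). The call was lost without tumor week 12 replicate 1 (-1.89, adjusted p = 0.131), replicate 2 (-2.05, adjusted p = 0.102) or replicate 3 (-1.85, adjusted p = 0.107). Without normal week 10 replicate 3 the week 10 difference of miR-203 was -0.51 (adjusted p = 0.0497).

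Averaged over the 4 weeks in one fit of the 24 libraries, miR-203 was lower in tumor and miR-205 was not distinguishable from normal. The average log2 fold change of miR-203 was -0.70 (SE 0.23, 95% interval -1.18 to -0.23, edgeR adjusted p = 0.00756), a level in tumor of 0.614 times that in normal glands. For miR-205 it was 0.29 (SE 0.29, 95% interval -0.31 to 0.90, adjusted p = 0.333). By this test 85.7% of the 237 miRNAs were called, and the median log2 fold change of all of them was -0.15. Without normal week 12 replicate 2 the average was -0.45 for miR-203 (adjusted p = 0.00584) and 0.57 for miR-205 (adjusted p = 0.0225), so for miR-205 this library decided the call. With the sequencing lane as a covariate the averages were -0.70 for miR-203 and 0.35 for miR-205, with the same calls.

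The 9 epithelial miRNAs of the comparison list rose in tumor at every week. All 9 passed the test upward at each of the 4 weeks, as did 69, 52, 78 and 69 of all 237 miRNAs at weeks 6, 8, 10 and 12. The median log2 fold change of the 9 was 1.92, 2.16, 2.01 and 2.32, against a median of all tested miRNAs of -0.12, -0.09, -0.15 and -0.19. Averaged over weeks, miR-200b rose by 2.54 (SE 0.12) and miR-141, the smallest of the 9, rose by 1.66 (SE 0.12). miR-375, known from endocrine and luminal cells, rose by 2.31 (SE 0.22), and miR-182, the most abundant of the miR-183 cluster, rose by 2.02 (SE 0.09). This list was chosen with earlier results of these data known, so its direction is given as a description.

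**Figure D2:**
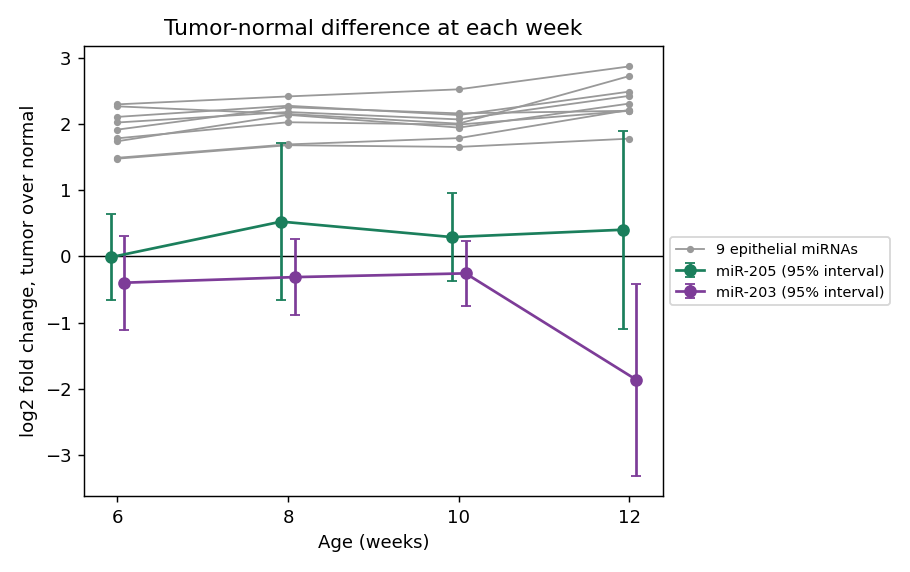
Tumor-normal log2 fold change from the edgeR test of each week against age in weeks, with the 9 epithelial miRNAs in grey, miR-205 in green and miR-203 in purple, and bars for the 95% intervals of the members. The grey lines lie above the point estimates of both members at every week, and the interval of miR-203 leaves 0 at week 12.

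Ratios within a library cancel the scaling between libraries, and were used to set the members against the miR-200 family. The log2 ratio was taken to the mean log2 level of the 5 family members. The family was chosen as the reference with its rise in these tumors known, and that rise lowers the ratio of any member that does not rise as much, so both ratios to it are a description and no p is given. The ratio of miR-203 to the miR-200 family was 2.71 log2 units lower in tumor (0.153-fold). It was 1.90 ± 0.89 (SD, n = 12) in normal glands, from 0.73 to 4.06, and -0.81 ± 0.36 in tumors, from -1.35 to -0.19. The groups did not overlap at any of the 4 weeks, with differences of -2.25, -2.42, -2.34 and -3.83, and without normal week 12 replicate 2 the mean difference was -2.56. Averaged over weeks the family members rose by 1.66 to 2.54, while the median log2 fold change of all tested miRNAs was -0.15. The share of all tested miRNAs that would be separate by such a ratio was not counted. Separation by a ratio to the family, here or for miR-205 below, is therefore not read as particular to a member.

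The ratio of miR-205 to the miR-200 family was lower in tumor by 1.71 log2 units (0.305-fold). It was 2.93 ± 0.66 (SD, n = 12) in normal glands and 1.22 ± 0.62 in tumors. The weekly differences were close to each other at -1.87, -1.65, -1.76 and -1.57, and the groups overlapped at 1 of the 4 weeks, week 8, where tumor replicate 3 (2.24) lay above normal replicate 1 (2.02). Within the libraries of lane 1 and of lane 2 the differences were -1.45 and -1.87 for miR-205 and -2.88 and -2.36 for miR-203.

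miR-205 was higher relative to miR-203 in tumor. The log2 ratio of miR-205 to miR-203 was 1.03 ± 1.13 (SD, n = 12) in normal glands and 2.03 ± 0.52 in tumors, a difference of 1.00 (two-sided exact permutation test within weeks over 160000 arrangements, p adjusted over 3 ratios = 0.00896). The weekly differences were 0.38, 0.77, 0.58 and 2.26, and week 12 was the 1 week at which the groups did not overlap. There the 3 normal glands had nearly equal ratios of -0.08, -0.22 and -0.47, replicate 2 among them, although that library held several times as much of both miRNAs as the other 2. The tumors of week 12 had ratios of 2.36, 2.18 and 1.48.

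This difference depended on the libraries used. It was 1.43 within lane 1 (exact permutation adjusted p = 0.0417) and 0.48 within lane 2 (adjusted p = 0.236). Without the 4 tumor libraries numbered 1 it was 0.84 (adjusted p = 0.0503), and without the 4 normal libraries numbered 1 it was 0.65 (adjusted p = 0.0923). Without normal week 12 replicate 2 it was 1.00 (adjusted p = 0.0130).

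**Figure D3:**
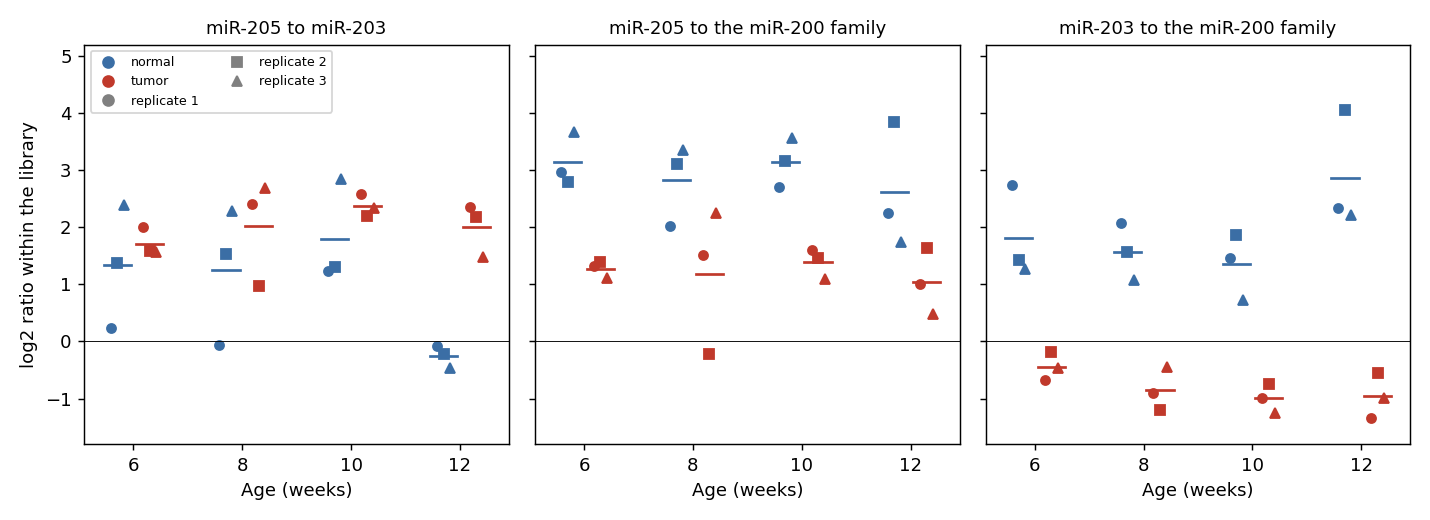
Log2 ratio within each library of miR-205 to miR-203 (left), miR-205 to the mean of the miR-200 family (middle) and miR-203 to the mean of the miR-200 family (right) against age in weeks, normal glands in blue and tumors in red, with lines for the mean of 3 libraries. In the right panel the normal glands, at 0.73 or above, and the tumors, at -0.19 or below, are separate at every week. The rise of the miR-200 family by itself lowers the ratios to it in tumors.

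To follow each miRNA across tumor progression, the weeks were compared within a genotype in the fit of all 24 libraries with edgeR. Within tumors neither member varied between weeks (adjusted p = 0.963 for miR-205 and 0.990 for miR-203), where edgeR called 0% of the 237 miRNAs, with 39 at an unadjusted p under 0.05 and 10 called by DESeq2's likelihood ratio test. From hyperplasia at week 6 to late carcinoma at week 12 the log2 change was 0.20 for miR-205 (SE 0.58, 95% interval -1.003 to 1.40) and -0.13 for miR-203 (SE 0.45, 95% interval -1.07 to 0.81), while 7.59% of the miRNAs were called. The intervals do not exclude a change of 1 log2 unit of miR-205 in either direction.

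Within normal glands miR-203 varied between weeks (adjusted p = 0.0226), as did 13.9% of the miRNAs, and miR-205 did not pass the test (adjusted p = 0.976). miR-203 rose from week 6 to week 12 by 1.37 (SE 0.46, 95% interval 0.42 to 2.33, adjusted p = 0.0365), with 21.1% of miRNAs called, and the change of miR-205 was -0.18 (SE 0.58, adjusted p = 0.876). The rise of miR-203 rested on normal week 12 replicate 2, without which it was 0.35 (adjusted p = 0.363) and the variation between weeks had an adjusted p of 0.344. Without normal week 6 replicate 3 the variation had an adjusted p of 0.0529 and the rise was 1.20 (adjusted p = 0.142). The call of the rise was also lost without normal week 6 replicate 2 (1.30, adjusted p = 0.114), tumor week 6 replicate 2 (1.37, adjusted p = 0.0633) or tumor week 12 replicate 1 (1.37, adjusted p = 0.0624).

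The tumor-normal difference itself was not shown to vary between weeks. The interaction test gave an adjusted p of 0.938 for miR-203 and 0.971 for miR-205. edgeR called 0% of the 237 miRNAs by it, with 9 at an unadjusted p under 0.05, and DESeq2's likelihood ratio test called 0. Between weeks 6 and 12 alone the difference of miR-203 changed by -1.50 (SE 0.64, adjusted p = 0.321), or by -0.41 (adjusted p = 0.477) without normal week 12 replicate 2, and that of miR-205 by 0.38 (SE 0.81, adjusted p = 0.767), with 0.422% of miRNAs called. The larger value of miR-203 at week 12 is therefore not established as a change from earlier weeks.

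The 2 miRNAs also differed in how much they varied between mice of one group. The SD of the log2 level within groups was 0.94 for miR-205 in normal glands, which ranked 17 of 237 from the most variable, and 0.56 in tumors, which ranked 35. For miR-203 it was 0.78 in normal glands, ranked 26, and 0.23 in tumors, ranked 168. The median over all miRNAs was 0.40 in normal glands and 0.31 in tumors. Without normal week 12 replicate 2 the SD in normal glands was 0.41 for miR-203, ranked 108, and 0.67 for miR-205, ranked 33, with a median over all miRNAs of 0.38. miR-205 was thus above the median in both genotypes with or without this library, while the wide spread of miR-203 in normal glands rested on it.

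Across libraries the 2 miRNAs showed no common pattern. Over the 12 normal glands Pearson's r of their log2 levels was 0.12 (permutation p = 0.718) and Spearman's rho -0.41 (permutation p = 0.184). Over the 12 tumors r was 0.16 (permutation p = 0.632) and rho 0.20 (permutation p = 0.542), and the adjusted values over the 2 genotypes were 0.718 for both r and 0.368 and 0.542 for rho. Within lanes, with 6 libraries each, r was -0.36 and 0.21 in normal glands and -0.04 and 0.40 in tumors.

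The value in normal glands rested on normal week 12 replicate 2. Without the 2 libraries farthest from the median of miR-205, which include it, r was -0.74 over 10 libraries (permutation p = 0.0143, adjusted p = 0.0286), and without it alone r was -0.70 over 11 (permutation p = 0.0158, adjusted p = 0.0316). This inverse relation depended on the scaling, with r = -0.33 (permutation p = 0.321) over the 11 when library sizes alone were used. Once the mean of each group was taken out, r was 0.43 (permutation p = 0.169) over the 12 normal glands, normal week 12 replicate 2 included. It was 0.31 (permutation p = 0.320) over the 12 tumors. Over both genotypes with normal week 12 replicate 2 left out r was 0.04, but the mean of its group still included that library. Whether the inverse relation holds within groups of normal glands without that library was therefore not tested. Without their 2 farthest libraries the tumors had r = 0.22.

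**Figure D4:**
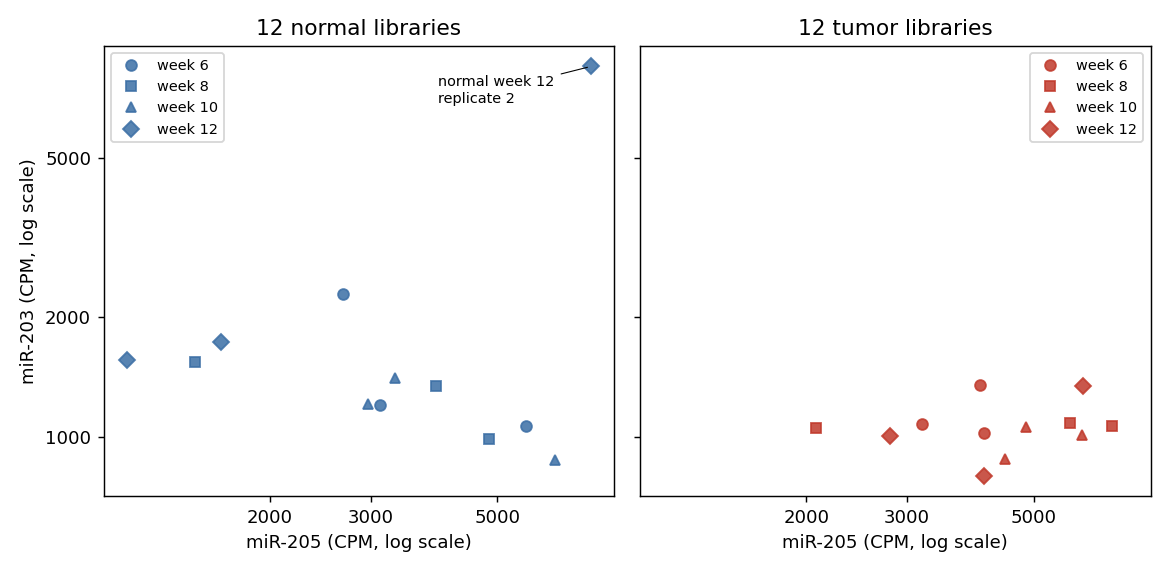
Level of miR-203 against that of miR-205 in CPM on log axes, each point a library, for 12 normal glands (left) and 12 tumors (right), with the mark showing the week. In the left panel 11 libraries fall from upper left to lower right and normal week 12 replicate 2 lies alone at the upper right, while the tumors form a flat band between 800 and 1349 CPM of miR-203.

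The miRNAs most like each member over the 24 libraries were found by Pearson's r of log2 CPM, given as a description since the libraries share genotype, week and scaling. For miR-205 they were mir-181d (r = 0.71), mir-19b (0.67), mir-93 (0.66), mir-331 (0.66) and mir-20a (0.62). For miR-203 they were mir-592 (0.61), mir-29b (0.55), mir-101a (0.51), mir-29c (0.49) and mir-103 (0.48). Neither member was among the nearest of the other, with miR-203 at place 142 of 236 for miR-205 and miR-205 at place 133 for miR-203, and no epithelial miRNA of the list was among these 10.

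Once the mean of each of the 8 groups was taken out, the order changed. For miR-205 the nearest were mir-324 (r = 0.86), mir-181d (0.76), mir-34b (0.76), mir-155 (0.76) and let-7i (0.73). For miR-203 they were mir-1965 (0.65), mir-210 (0.60), mir-196b (0.48), mir-196a (0.41) and mir-34b (0.40). The latter set rested in part on normal week 12 replicate 2. With that library left out r was 0.45 for mir-1965, 0.25 for mir-210 and 0.06 for mir-34b. The mean of its group still included it, so these values are not wholly free of that library.

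The miRNAs of other cell types also differed between the genotypes, and their part in the levels of miR-205 and miR-203 was not tested. In bulk tissue fewer cells of a type and less RNA per cell cannot be told apart. Of all 237 tested miRNAs, 70, 32, 65 and 51 passed the test downward at weeks 6, 8, 10 and 12, and 69 passed it upward at week 6. The summed level of the 9 epithelial miRNAs ran from 52923 to 95414 CPM in tumors and from 11117 to 20213 CPM in normal glands. The 5 miRNAs of fibroblasts and smooth muscle (mir-143, mir-145, mir-199a, mir-199b and mir-214) summed to 70032 to 136943 CPM in tumors and 158619 to 276068 CPM in normal glands, and all 5 fell at every week. mir-126 of endothelium fell at every week, from a range of 20498 to 37464 CPM in normal glands to 6568 to 18254 CPM in tumors.

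Beside the 70, 32, 65 and 51 of all 237 miRNAs that fell at weeks 6, 8, 10 and 12, a count of 1 in a short list says little about a cell type. Of the 3 erythroid miRNAs 1, 0, 1 and 3 fell at these weeks, with sums of 7798 to 34558 CPM in normal glands and 2060 to 13679 CPM in tumors. Of the 4 leukocyte miRNAs 3 were tested and 1 of them, mir-150, fell at each week, while mir-223 was listed at 0 in all 24 libraries. The sums were 1681 to 3241 CPM in normal glands and 1198 to 1868 CPM in tumors. Of the 5 skeletal muscle miRNAs 3 were tested, of which 0, 1, 0 and 3 fell, and their sums ran from 89.0 to 89335 CPM in normal glands and 39.9 to 18075 CPM in tumors. Of the 3 adipocyte-linked miRNAs 1 rose at week 6 and 1 fell at weeks 10 and 12, with sums of 4662 to 25146 CPM in normal glands and 3046 to 15080 CPM in tumors.

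In normal week 12 replicate 2, the library with the most miR-203 and miR-205, the epithelial miRNAs summed to 14906 CPM, near the 12586 and 12682 CPM of replicates 1 and 3. Its fibroblast and smooth muscle sum was 223728 CPM, against 249228 and 276068 CPM in the others. Its endothelial sum was 23189 CPM, against 35333 and 37464 CPM. The skeletal muscle sum was 2464 CPM, between 89335 CPM in replicate 1 and 707 CPM in replicate 3. By single miRNAs, mir-141 (144 CPM, against a maximum of 139 in the other 11 normal glands) and mir-429 (1081 against 1077 CPM) were also above all of them, and the other 7 epithelial miRNAs were not.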

How the data were processed

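The authors removed barcode and adaptor, kept reads of 17 to 27 bases, aligned them with Bowtie, assigned reads that overlapped a miRBase miRNA by more than 50%, and deposited raw counts per miRNA. The paper names mm10 and the labels mm9, and Bowtie's version is not given in the sources used here. All 24 columns matched a labelled library.

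Weeks, replicate numbers and sequencing lanes (1 and 2, each group on both) came from the labels, and that each group held 3 separate mice came from the paper. Counts were analysed in R 4.3.3 with edgeR 4.0.16 (filterByExpr over 8 groups, TMM, glmQLFit and glmQLFTest, Benjamini-Hochberg over 237 miRNAs, threshold 0.05), each week alone and, for averages, interactions and weeks, all 24 libraries together. Log2 CPM used a prior count of 2. Ratios were tested by exact permutation within weeks, over 160000 arrangements for the 24 libraries. Correlations were tested by permutation with 100000 resamples, exact for 6 libraries. Both were written with numpy 2.4.6, and scipy 1.17.1 gave their Benjamini-Hochberg adjustment. The procedures were checked on simulated data. DESeq2 1.42.0 and other settings were alternatives, and leaving out normal week 12 replicate 2 from ratios, correlations and spreads was chosen after seeing the data. RefSeq (GRCm38.p6) gave sequences and the mm9 annotation gave loci.

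The members and lists were chosen with earlier results of these data known. The miRNAs named are the members, the marker lists and, for each member, the 5 miRNAs with the highest r by each measure. Intervals cover counting error and the spread between mice, and amplified reads are not independent molecules. With 3 libraries per group precision is set by mice rather than depth.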

Additional observations from a re-analysis of the deposited data

How the results depend on the processing

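Of 27 results under the alternatives, 174 of 190 values kept direction and side of the threshold. With libraries left out 378 of 407 values did so. The tally includes both ratios to the miR-200 family, which are a description, and results that are an adjusted p alone and have no direction. Many of the results did not pass the threshold in the main setting, so keeping their side is not evidence of an effect. The cause of the exceptions was not tested. The week 6 difference of miR-205, -0.01, became 0.026 with DESeq2's size factors and with its Wald test, 0.084 with at least 10 counts in every library, 0.0588 with lane as a covariate and 0.0615 with the replicate block. The week 12 difference of miR-203 was -1.92 with library sizes (adjusted p = 0.0609) and -1.87 with DESeq2's Wald test (adjusted p = 0.0548), both missing the threshold. The rise of miR-203 within normal glands missed it at 1.23 with library sizes, 1.30 with at least 10 counts in every library and 1.21 with the replicate block. The week 12 minus week 6 change of miR-203 in tumors was 4.92e-05 with size factors and 4.94e-05 with DESeq2's Wald test. The ratio of miR-205 to miR-203 was 0.485 within lane 2. For the correlation of miR-205 and miR-203, r was -0.365 in normal glands and -0.0362 in tumors of lane 1, and in normal glands -0.741 without the 2 farthest libraries, -0.703 without normal week 12 replicate 2, and -0.335 with library sizes as well. Against TMM, size factors moved the median log2 fold change of all miRNAs by -0.15 at week 6 and -0.10 at week 8, and library sizes by -0.14, -0.15 and 0.16 at weeks 6, 8 and 12.

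Leaving out each replicate in turn gave, for miR-205, differences of -0.210 to 0.373, 0.192 to 0.893, 0.0489 to 0.612 and -0.0366 to 1.60 in weeks 6, 8, 10 and 12, and an average of 0.155 to 0.569. For miR-203 the ranges of weeks 6, 8, 10 and 12 were -0.599 to 0.0168, -0.429 to -0.0969, -0.508 to -0.104 and -2.27 to -0.698. From week 6 to 12 it gave, in normal glands, 0.347 to 1.81 for miR-203 and -1.23 to 0.316 for miR-205, and in tumors -0.347 to 0.110 and -0.128 to 0.497. The change of the tumor-normal difference between weeks 6 and 12 ran from -0.0732 to 1.499 for miR-205 and from -1.92 to -0.412 for miR-203, the adjusted p for miR-203 across weeks in normal glands from 0.0105 to 0.344, and the ratio of miR-205 to miR-203 from 0.649 to 1.36. The average of miR-203 kept its call in each of these fits, from -0.888 to -0.449.

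A tumor and a normal library with one number and week deviated together with a mean r of 0.41 over 12 pairs, from 0.03 to 0.82, and 10 of 12 lay over 0.1, which hints at a shared structure. Libraries of one week with different numbers had a mean r of -0.18. The labels name no shared animal or litter, but they place both libraries of each pair on the same sequencing lane. Whether the lane accounts for the shared structure was not tested. The numbers were to be taken as pairs only where every pair exceeded 0.1, so the block was kept as an alternative. With the replicate block the average was -0.56 for miR-203 (adjusted p = 0.00781) and 0.44 for miR-205, and the week 12 difference of miR-203 was -1.46 (adjusted p = 0.00544). The block changed no call other than the rise of miR-203 within normal glands, given above.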

Other observations

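Beside miR-203 and miR-205, a small set of miRNAs was high in normal week 12 replicate 2, named after its values were seen. mir-196a had 599.7 CPM in it, against a median of 6.15 CPM and a maximum of 663 CPM in the other 11 normal glands. mir-196b had 559.6 CPM, against a median of 112 and a maximum of 637 CPM. mir-210, known to rise under low oxygen, had 778 CPM, above the maximum of 313 CPM in the other normal glands. mir-1965 was higher as well, on 12 counts. In all, 9 of 237 miRNAs lay more than 1 log2 unit above the mean of the other normal glands in this library and 3 more than 2 log2 units above it.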
